A study of Vitis vinifera with 12 samples.

Results

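The sequence named chr00 carried 1532 of the 44889 binding events deposited for 3 grapevine (Vitis vinifera) transcription factors. Its members are all events with chr00 as their sequence name in any of the 7 event lists, and no measured value was used to choose them. Events were sparser on chr00 than on the numbered chromosomes in all 7 lists, though barely so for NAC33 on berry DNA (0.970 times the density). Yet chr00 held between 12 and 37 of the strongest 100 events of every list, while it made up 2.99% to 5.47% of a list. Of the 1532 chr00 events, 195 were among the strongest 100 of their list, a class that holds 1.56% of all events of the series. Those strong events lay in a small number of short stretches, and the rest of chr00 carried events of all strengths. Each condition had 1 list, so differences between lists have no spread between replicates and no test.

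The factors were CARPO (also labelled NAC60), NAC33 and NAC03, all of the NAC family. DNA affinity purification sequencing (DAP-seq) was used, in which a purified factor retains fragments of naked genomic DNA that are then sequenced. Each factor carried a HALO affinity tag, came from rabbit reticulocyte lysate and met fragmented genomic DNA of the cultivar Syrah, which came from berry or from young leaf per the source labels. Growth and treatment texts name leaf material for every sample, including those with berry as their source, and the titles carry 500 or 1000 with no unit. The 7 lists are CARPO 500 on berry DNA, CARPO 1000 on leaf DNA, CARPO 500 on leaf DNA, NAC33 500 on berry DNA, NAC33 1000 on leaf DNA, NAC33 500 on leaf DNA and NAC03 500 on leaf DNA. They stem from 9 libraries, because the CARPO and NAC33 lists labelled 500 on leaf DNA were each called from 2 replicates together and the others from 1 library. The 3 HALO-GST control samples, in which the tag is joined to a protein that is no plant transcription factor, were not analysed here, so no value below is set against a control. Read depth is unknown.

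NAC proteins are plant transcription factors with a conserved DNA-binding domain at the start of the protein, and they bind DNA as dimers. Members of the family act in fruit ripening, leaf senescence and other steps of organ maturation. In DAP-seq the DNA has lost its chromatin, so an event reports what the protein retained from bare fragments and not occupancy in a living cell. Genome assemblies often join fragments that could not be placed on a chromosome into a single artificial sequence, and chr00 is such a name by common usage. Neighbours on such a sequence need not be neighbours in the plant. The genome build is not stated in the sources used here, so positions are given as deposited, and no gene or base sequence at the events was analysed here.

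The berry list of CARPO had 138 chr00 events among 3757 (3.67%, exact 95% interval 3.09% to 4.33%). CARPO 1000 had 283 of 9170 (3.09%, 2.74% to 3.46%), and CARPO 500 on leaf DNA had 442 of 14786 (2.99%, 2.72% to 3.28%). For CARPO the 3 shares thus had overlapping intervals. NAC33 had 40 chr00 events on berry DNA (5.47% of its list, 3.94% to 7.38%), 237 of 6298 at 1000 (3.76%, 3.31% to 4.26%) and 195 of 5870 at 500 on leaf DNA (3.32%, 2.88% to 3.81%). The NAC33 berry share lay above the leaf share labelled 500, with intervals that did not overlap, while its interval overlapped that at 1000. The berry list was also the shortest. With the leaf list labelled 500 cut to that length, chr00 made up 7.11% of it, above the 5.47% on berry DNA. NAC03 had 197 of 4277 (4.61%, 4% to 5.28%). All intervals given here assume that events are independent of each other and describe counting error alone.

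Taking the highest event end in any list as the length of each sequence, chr00 made up 5.63% of the total. Its density of events per Mb was 0.516 to 0.970 times that of the numbered chromosomes, lowest for CARPO 500 on leaf DNA and highest for NAC33 on berry DNA. CARPO 500 on leaf DNA had 16.2 events per Mb on chr00, and the 19 numbered chromosomes had 22 to 42.8 events per Mb. In 5 of the 7 lists chr00 was thus sparser than every numbered chromosome. The exceptions were NAC33 on berry DNA, in which 7 numbered chromosomes were sparser than chr00, and NAC03, in which 4 were.

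The deposited strength of an event ranks it within its own list. The CARPO lists had 33 chr00 events among the strongest 100 on berry DNA, 12 at 1000 and 20 at 500 on leaf DNA. NAC33 had 30 on berry DNA, 37 at 1000 and 35 at 500 on leaf DNA, and NAC03 had 28. Outside the strongest 100, chr00 made up 1.58% to 4.05% of a list. When each list was reduced to the length of the shortest, the NAC33 berry list, chr00 made up 10.7%, 5.88% and 13.1% of the CARPO lists on berry DNA, at 1000 and at 500. For NAC33 the values were 5.47% on berry DNA, where all events were kept, 11.5% at 1000 and 7.11% at 500, and for NAC03 the value was 15.2%. The order of the lists by this share therefore depended on how many events were kept.

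A median describes chr00 poorly, because many of its events were ordinary and a block of them was very strong. The strength percentile, which is the share of a list's events at or below a given strength with ties counted at their middle, shows this. In the NAC33 list labelled 500 on leaf DNA, chr00 and the numbered chromosomes had the same median percentile of 49.9. With each list cut into 10 strength classes of about equal size, 25.1% of its chr00 events fell in the strongest class and 19.0% in the weakest, against 9.57% and 9.74% of the events on numbered chromosomes. Both end classes thus held a larger share on chr00. CARPO 1000 had 18.0% in the strongest class and 14.8% in the weakest, against 9.73% and 9.88%. In the berry lists the weakest class held 3.62% of the CARPO and 0 of the 40 NAC33 chr00 events, and a count of 0 allows a share of up to 7.5%.

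**Figure D1:**
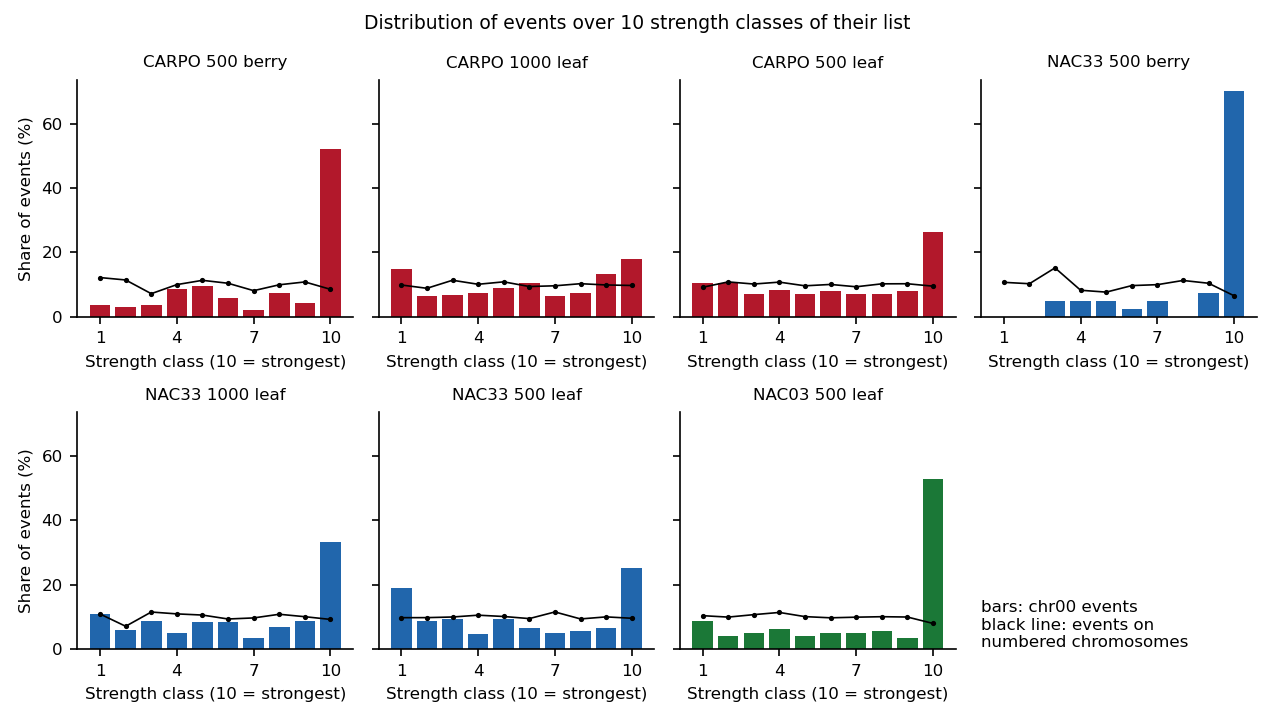
Share of events (vertical axis, %) in each of 10 strength classes of their list (horizontal axis, 10 = strongest), for chr00 events (bars) and events on numbered chromosomes (black line), in 7 lists. The strongest class holds 18.0% (CARPO 1000) to 70% (NAC33 berry) of the chr00 events, and in the NAC33 list labelled 500 on leaf DNA the weakest class is also raised, at 19.0%.

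The median strength on chr00 was 56.0 in the CARPO berry list, against 18.0 on numbered chromosomes. It was 28.0 against 26.0 in CARPO 1000 and 32.4 against 29.0 in CARPO 500 on leaf DNA. The berry list thus stood apart from both leaf lists of the same factor. The NAC33 berry list had a median of 227.0 on chr00 and 16.0 on numbered chromosomes, while NAC33 1000 had 25.2 and 21.0 and NAC33 500 on leaf DNA had 27.7 and 27.7. In NAC03 the medians were 48.4 on chr00 and 20.0 on numbered chromosomes. Strengths are not comparable between lists, and the berry lists were the 2 shortest, so the DNA source and the number of events kept cannot be told apart here.

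The strongest chr00 event was the same place in 5 of the 7 lists. It lay at position 7155534 (interval 7155434 to 7155634) in the CARPO berry list, with a strength of 3677 and rank 4 of the whole list. CARPO 1000 had it at 7155533 with a strength of 5631 and rank 4, and CARPO 500 on leaf DNA had it at 7155535 with a strength of 5366 and rank 4. NAC33 1000 had it at 7155537 with a strength of 1392.3 and rank 5, and NAC03 at 7155534 with a strength of 2391.9 and rank 5. Positions in these 5 lists differed by at most 4 bp. The other two lists, both of NAC33 labelled 500, had no event there. Their nearest chr00 events lay 6091 bp away on berry DNA and 6040 bp away on leaf DNA. NAC33 thus had this place among its 5 strongest events at 1000 and did not list it at 500, although its list labelled 500 on leaf DNA was called from 2 libraries.

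In both NAC33 lists labelled 500, the strongest chr00 event lay at another place. It was at 23719596 on berry DNA (strength 829, rank 3) and at 23719587 on leaf DNA (strength 541, rank 7). NAC33 1000 had it at 23719584 with rank 22, and NAC03 at 23719585 with rank 79. Measured from the leaf position, the nearest CARPO event lay 1061 bp away, in CARPO 1000. The 2 leading places of chr00 therefore differed in the factors that held them, with the first found in all CARPO lists and the second in all NAC33 lists.

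To see where events lay along chr00, events of all lists within 100 bp of each other were linked into places, which gave 840 places over a span from 82992 to 27358533. No place was wider than 218 bp. Of 274 windows of 100 kb, 228 held at least 1 place, with a median of 3 places per occupied window. Places were thus spread along most of the sequence. The densest window, 10800001 to 10900000, held 30 places, and 15000001 to 15100000 held 23. The adjoining windows 7000001 to 7100000 and 7100001 to 7200000 tied with 21 each, so 4 windows are described. They cover 1.46% of chr00 and held 95 of the 840 places (11.3%).

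These 4 windows were chosen by their number of places and not by strength, and most of their events were strong. They held 279 of the 1532 chr00 events (18.2%) but 213 of the 402 that belonged to the strongest 5% of their list (53.0%). Over all events of the series, 5.01% belonged to that class. The window at 10800001 held 87 events, of which 66 were in the strongest 5%, and that at 15000001 held 68, of which 62 were. That at 7100001 held 71, of which 61 were, and its neighbour at 7000001 held 53, of which 24 were. The neighbour was thus the least uniform of the 4 and held the weakest of their events, at percentile 1.81. Of the 279 events in the 4 windows, 29 lay below percentile 90.

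Strong events were few outside a short list of windows. Only 40 of the 274 windows held any of the 402 events, and the 10 richest windows held 326 of them (81.1%). Beside the 4 windows above, the richest were 16300001 to 16400000 and 13700001 to 13800000, with 29 each. The 8 megabases that start at 2000001, 4000001, 5000001, 6000001, 9000001, 21000001, 22000001 and 26000001 held none, although each carried 11 to 42 places. A stretch could therefore be rich in places and free of strong events, as the 42 places from 9000001 to 10000000 show.

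**Figure D2:**
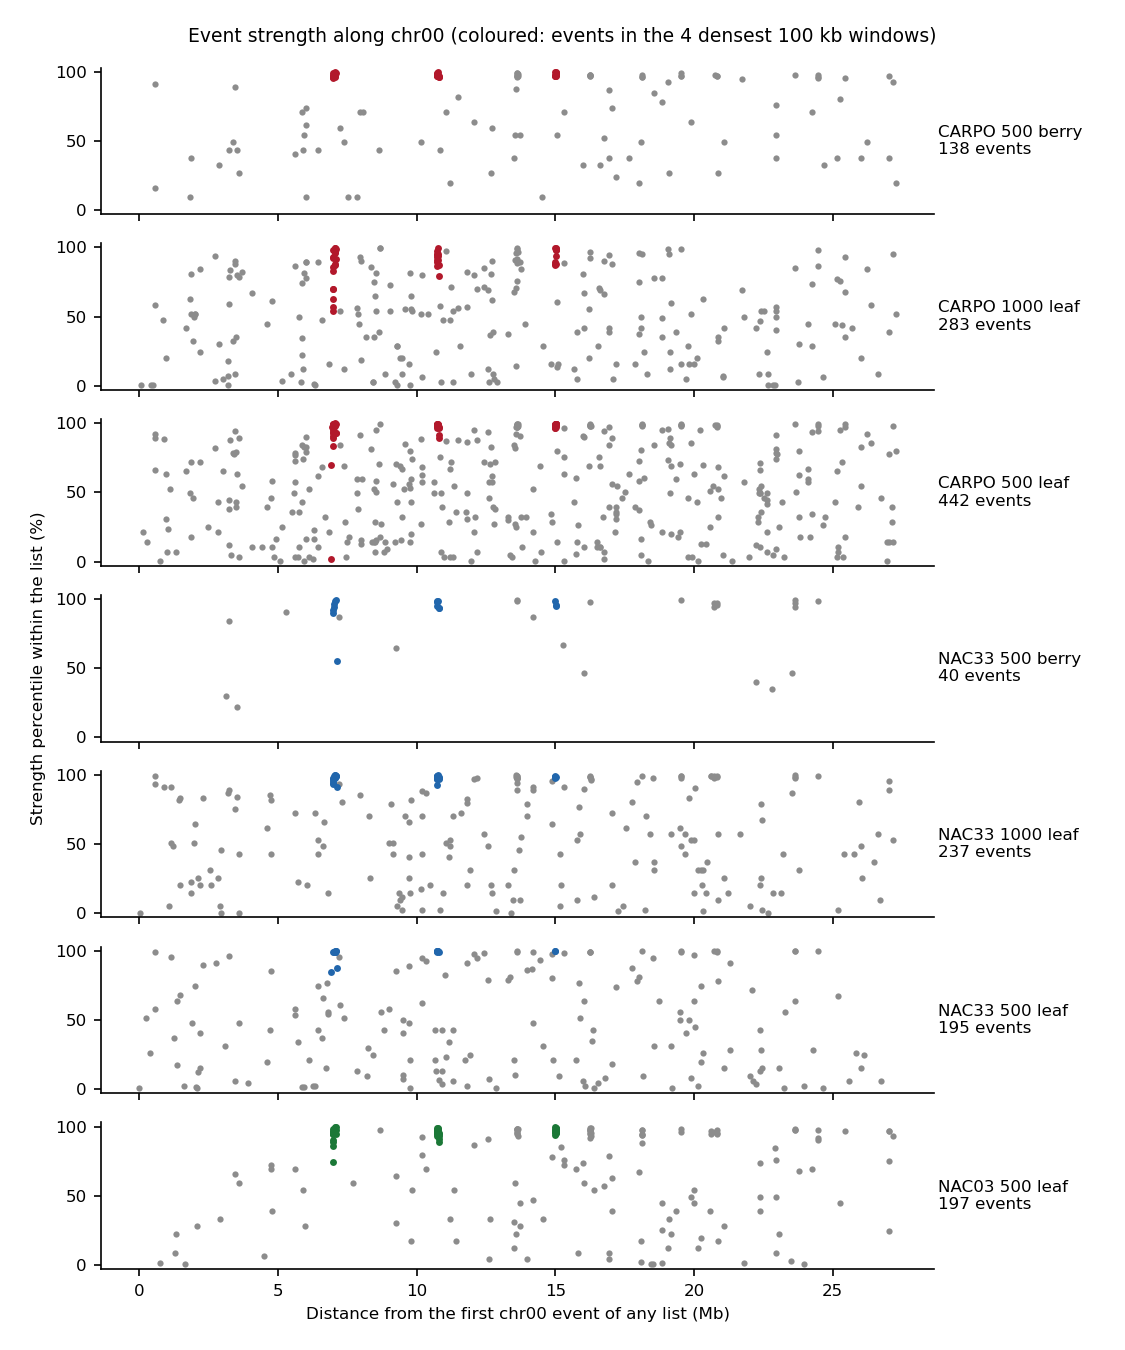
Strength percentile of each chr00 event within its list (vertical axis, %) by distance from the first chr00 event of any list (horizontal axis, Mb), with a panel for each of 7 lists. Coloured points, the 279 events in the 4 densest windows of 100 kb, pile up near the top in all panels, while grey points, the rest of chr00, spread over the whole range except in the sparse NAC33 berry list.

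The CARPO lists had 40, 43 and 63 events in these 4 windows on berry DNA, at 1000 and at 500 on leaf DNA. Their median percentiles were 97.5, 92.8 and 98.5. All 40 berry events were in the strongest 5%, against 17 of the 43 at 1000 and 51 of the 63 at 500 on leaf DNA. The windows thus stood lower in the CARPO list labelled 1000 than in either list labelled 500. NAC33 had 16, 36 and 19 events in the windows on berry DNA, at 1000 and at 500 on leaf DNA, with median percentiles of 95.4, 98.4 and 99.4. NAC03 had 62 events with a median of 96.4.

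Outside the 4 windows, chr00 was close to the numbered chromosomes in the leaf lists of CARPO and NAC33. Its median percentile was 49.3 in CARPO 1000 and in CARPO 500 on leaf DNA, against 49.9 and 49.3 on numbered chromosomes. It was 53.1 in NAC33 1000 and 42.4 in NAC33 500 on leaf DNA, against 48.3 and 49.9. In CARPO on berry DNA it was 63.6 against 48.9, in NAC33 on berry DNA 92.3 against 46.6, and in NAC03 66.0 against 49.3. The share in the strongest 5% stayed above that of the numbered chromosomes in all 7 lists, between 6.25% (CARPO 1000) and 41.7% (NAC33 berry) outside the windows, against 2.60% to 4.78% on numbered chromosomes. Of the strongest 100 events of the lists, chr00 held 195 in all, and 86 of them lay outside the 4 windows.

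**Figure D3:**
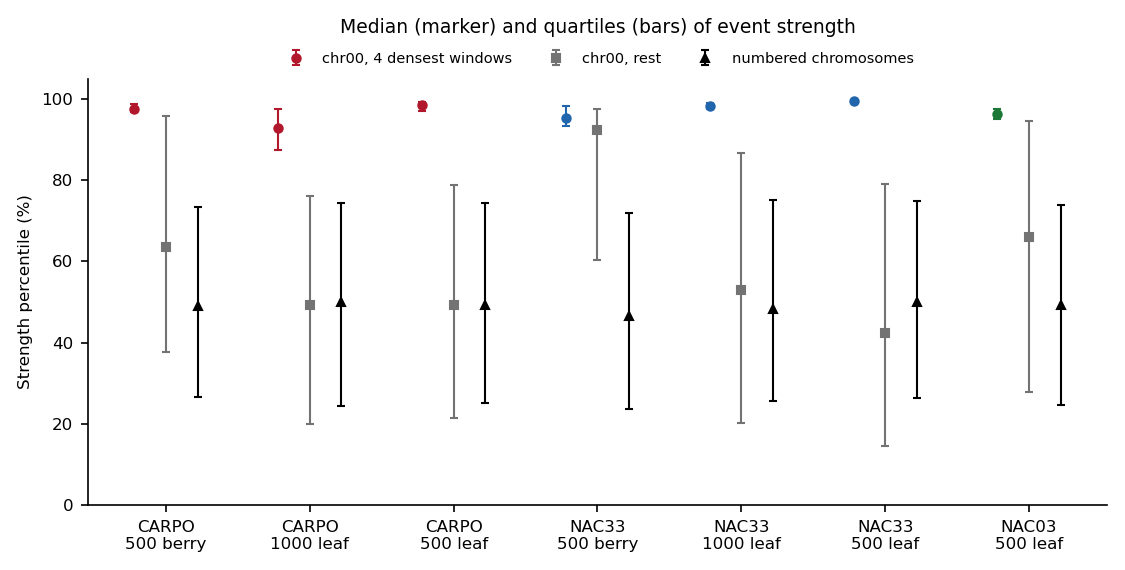
Median strength percentile (markers) with lower and upper quartile (bars) in each of 7 lists, for chr00 events in the 4 densest windows (coloured circles), other chr00 events (grey squares) and events on numbered chromosomes (black triangles). The densest windows lie at 92.8 to 99.4 in every list, while the rest of chr00 ranges from 42.4 (NAC33 500 leaf) to 92.3 (NAC33 berry).

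Packing of strong events was not limited to chr00. The window of the numbered chromosomes with most events of the strongest 5% was the same in all 7 lists, 16200001 to 16300000 of chromosome 10, which was singled out after its values were seen. It held 8, 5 and 12 such events in the CARPO lists on berry DNA, at 1000 and at 500 on leaf DNA. The richest chr00 window of each of these lists held 13, 6 and 17. In the NAC33 lists the chromosome 10 window held 4 on berry DNA, 8 at 1000 and 4 at 500 on leaf DNA, against 3, 13 and 8 in the richest chr00 window, and in NAC03 it held 10 against 16. The richest chr00 window exceeded it in 6 of the 7 lists, the exception being NAC33 on berry DNA.

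Close neighbours within a single list were also more frequent on chr00. The share of chr00 events with another event of the same list within 500 bp was 24.6%, 21.2% and 18.3% in the CARPO lists on berry DNA, at 1000 and at 500 on leaf DNA. On numbered chromosomes it was 6.08%, 14.2% and 11.5%. The gap was thus widest in the berry list of this factor. For NAC33 the shares were 5%, 13.1% and 8.21% on chr00, against 4.20%, 5.25% and 4.65%, and for NAC03 they were 22.8% against 6.99%. The share was higher on chr00 in every list, but in NAC33 on berry DNA it rested on 2 events. The median distance to the nearest event of the same list did not follow in all lists. It was larger on chr00 in CARPO 1000 (12470 against 10921 bp) and CARPO 500 on leaf DNA (8777.5 against 6928 bp). NAC33 500 on leaf DNA also had a larger distance on chr00 (34417 against 22331 bp), and the remaining lists had a smaller one.

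High strength on chr00 did not always go with a high −log10 p-value in the deposited lists. Among events of the strongest 5%, the median −log10 p-value of NAC03 was 11.6 in the 4 densest windows and 11.3 elsewhere on chr00, against 20.2 on numbered chromosomes. In CARPO 500 on leaf DNA it was 23.9 and 20.9 on chr00, against 29.8. NAC33 1000 had 14.7 and 14.4 on chr00, against 16.2. In NAC33 500 on leaf DNA both chr00 values were above that of the numbered chromosomes, with 16.6 and 16.5 against 9.95, and in CARPO 1000 they were as well, with 68.8 and 72.3 against 66.5. CARPO on berry DNA had 29.0 and 20.3 against 30.5, and NAC33 on berry DNA had 25.4 and 39.4 against 27.9. Of the events at the highest −log10 p-value that the lists give, which acts as a cap, chr00 had 3 of 10, 4 of 16 and 3 of 18 in the CARPO lists on berry DNA, at 1000 and at 500 on leaf DNA, 1 of 5 in NAC03 and none in the 3 NAC33 lists.

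Recurrence was read as an event of another list within 100 bp, called a partner. Summed over the lists, 1022 of the 1532 chr00 events had a partner in at least 1 other list (66.7%, 95% interval 64.3% to 69.1%). Over all events the share was 64.9%, just inside that interval, when lists of unequal length were used whole. With every list cut to the length of the shortest, 80.2% of 504 chr00 events had a partner, against 67.9% on numbered chromosomes, and with −log10 q of 4 or more it was 75.4% against 67.6%. With all events, the 4 densest windows and the rest of chr00 lay on either side of the overall share. In the windows, 246 of 279 events had a partner (88.2%, 83.8% to 91.7%), and elsewhere on chr00 776 of 1253 had one (61.9%, 59.2% to 64.6%).

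For CARPO, 130 of the 138 berry events on chr00 had a partner in some other list (94.2%), against 90.8% of all events of that list. The values were 75.6% against 78.7% for CARPO 1000 and 61.8% against 58% for CARPO 500 on leaf DNA. NAC33 had 35 of 40 on berry DNA (87.5%, 73.2% to 95.8%), against 67.7% of all events, which lay below the interval. It had 54.0% against 51.2% at 1000 and 50.8% against 48.8% at 500 on leaf DNA. In NAC03, 143 of 197 had a partner (72.6%, 65.8% to 78.7%), against 78.3%. The NAC33 berry list was the only list whose share over all events fell outside the interval of its chr00 share by this measure. The lists with which an event can be paired differ in number between factors, because NAC03 has no second list.

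A partner of another factor was found for 628 of the 1532 chr00 events (41.0%, 38.5% to 43.5%), against 34.8% of all events. The share was unequal within chr00, with 204 of 279 events shared with another factor (73.1%, 67.5% to 78.2%) and 424 of 1253 outside them (33.8%, 31.2% to 36.5%). Split by strength, the pooled chr00 share with a partner in any other list was lower in both classes. Among the strongest 5% of the lists, 359 of the 402 chr00 events had a partner in any other list (89.3%, 85.9% to 92.2%), against 95.6% (94.6% to 96.5%) of the 1849 on numbered chromosomes. Single lists varied, with 95.3% on chr00 against 94.5% in NAC33 500 on leaf DNA and 100% against 97.5% in CARPO on berry DNA. The list that differed most was NAC33 1000, with 50 of 66 (75.8%, 63.6% to 85.5%) on chr00 against 91.2% (86.9% to 94.4%) of 249. Among the weaker 95%, 58.7% (55.7% to 61.6%) of 1130 chr00 events had a partner, against 63.5% of 41508. For partners in any other list, chr00 was thus below the numbered chromosomes in both classes but above them when all strengths were pooled. Of the 1532 chr00 events, 402 were in the stronger class. For partners of another factor, the strongest 5% had 70.4% (65.7% to 74.8%) on chr00, against 78.0% on numbered chromosomes. The weaker 95% had 30.5% (27.9% to 33.3%), against 32.6%, which lay inside the interval.

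Berry and leaf lists of the same factor are compared next. Of the 138 CARPO berry events on chr00, 124 had a partner in the leaf list labelled 500 (89.9%, 83.6% to 94.3%), against 86.3% of all berry events. Of the 442 leaf events, 125 had a berry partner (28.3%, 24.1% to 32.7%), against 22.6% of all leaf events. The NAC33 berry list had leaf partners for 24 of its 40 events (60%, 43.3% to 75.1%), against 49.2% of all. In the other direction, 24 of 195 had a berry partner (12.3%, 8.05% to 17.8%), against 6.1% of all. In both factors a larger share of chr00 leaf events than of all leaf events was found again on berry DNA, with the overall share below the interval. Counted over leaf events, the share was unequal within chr00. For CARPO it was 37 of 63 leaf events (58.7%) in the 4 densest windows and 88 of 379 (23.2%) elsewhere, close to the 22.6% of all. For NAC33 it was 9 of 19 (47.4%) in the windows and 15 of 176 (8.52%) elsewhere. For CARPO berry events the shares were about equal, with 36 of 40 (90%) in the windows and 88 of 98 (89.8%) elsewhere. NAC33 berry events had 8 of 16 (50%) in the windows and 16 of 24 (66.7%) elsewhere. The leaf events found again were the strong ones, with median percentiles of 95.6 for CARPO and 99.5 for NAC33, against 39.6 and 42.4 for those not found.

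Between the title numbers 1000 and 500, the overall share lay inside the chr00 interval in both factors and both directions when all events were used. Of the 283 CARPO events labelled 1000, 207 had a partner at 500 (73.1%, 67.6% to 78.2%), against 75.9% of all, and 205 of the 442 at 500 had a partner at 1000 (46.4%, 41.7% to 51.2%), against 46.9%. In NAC33 1000, 81 of the 237 events recurred at 500 (34.2%, 28.2% to 40.6%), against 37% of all. Of the 195 at 500, 79 had a partner at 1000 (40.5%, 33.6% to 47.8%), against 39.5%. Within chr00 the shares were unequal and higher in the 4 densest windows than elsewhere. For CARPO they were 93.0% against 69.6% for events labelled 1000, and 61.9% against 43.8% for those labelled 500. For NAC33 they were 44.4% against 32.3% at 1000, and 89.5% against 35.2% at 500. With every list cut to the length of the shortest, the chr00 share was higher than the overall share, at 86.0% against 63.1% for CARPO 1000 in 500 and 73.1% against 49.7% for NAC33 500 in 1000.

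Shared events also differed in their place within the lists. In the 4 densest windows, 40 CARPO events were shared, with a median rank of 648.5 at 1000 and 140 at 500, and 39 of the 40 had a lower percentile at 1000. On numbered chromosomes the 6757 shared events had median ranks of 3643 at 1000 and 3887 at 500, and 69.7% had a lower percentile at 1000. The 167 shared events elsewhere on chr00 had ranks of 3778 at 1000 and 4092 at 500, and 69.5% had a lower percentile at 1000. In NAC33 the 16 shared events of the windows had median ranks of 60.5 at 1000 and 31 at 500, and 15 of the 16 had a lower percentile at 1000. The 2251 on numbered chromosomes had 1780 at 1000 and 1580 at 500, and 52.2% had a lower percentile at 1000. The 65 shared NAC33 events elsewhere on chr00 had 1278 at 1000 and 1203 at 500, with 63.1% lower. A lower percentile at 1000 was thus more frequent in the windows. There the median percentile at 500 was 99.1 for CARPO and 99.5 for NAC33, so these events had little room to rise. Neither how often nor how far they moved in percentile can therefore be compared directly with the other classes. The median difference in percentile, 1000 minus 500, was -5.70 points in the windows for CARPO, against -6.72 elsewhere on chr00 and -8.07 on numbered chromosomes. For NAC33 it was -0.404 in the windows, against -0.476 and -0.507. The ranks come from lists of different lengths. The list labelled 500 came from 2 libraries and the list labelled 1000 from 1, so the label and the pooling cannot be told apart.

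The 3 factors can be compared on leaf DNA at the title number 500. CARPO partners were found for 123 of the 197 NAC03 events on chr00 (62.4%, 55.3% to 69.2%), against 72.3% of all NAC03 events. Of the CARPO events, 128 of 442 had a NAC03 partner (29.0%, 24.8% to 33.4%), against 21.5% of all. The overlap of these 2 lists on chr00 thus lay below the overall share when counted over NAC03 and above it when counted over CARPO, each beyond its interval. With both lists cut to the length of the shortest list, NAC03 in CARPO was 55.0% of 111 chr00 events against 50.1% of all. The chr00 value counted over NAC03 thus no longer lay below the overall share, and no interval was computed for it. CARPO and NAC33 shared 43 of 442 CARPO events (9.73%, 7.13% to 12.9%), against 8.74% of all, and 41 of 195 NAC33 events (21.0%, 15.5% to 27.4%), against 21.1%. NAC33 and NAC03 shared 33 of 195 NAC33 events (16.9%, 11.9% to 22.9%), against 15.8%, and 35 of 197 NAC03 events (17.8%, 12.7% to 23.8%), against 22%. For the pairs with NAC33 the overall share lay inside the chr00 interval in both directions.

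**Figure D4:**
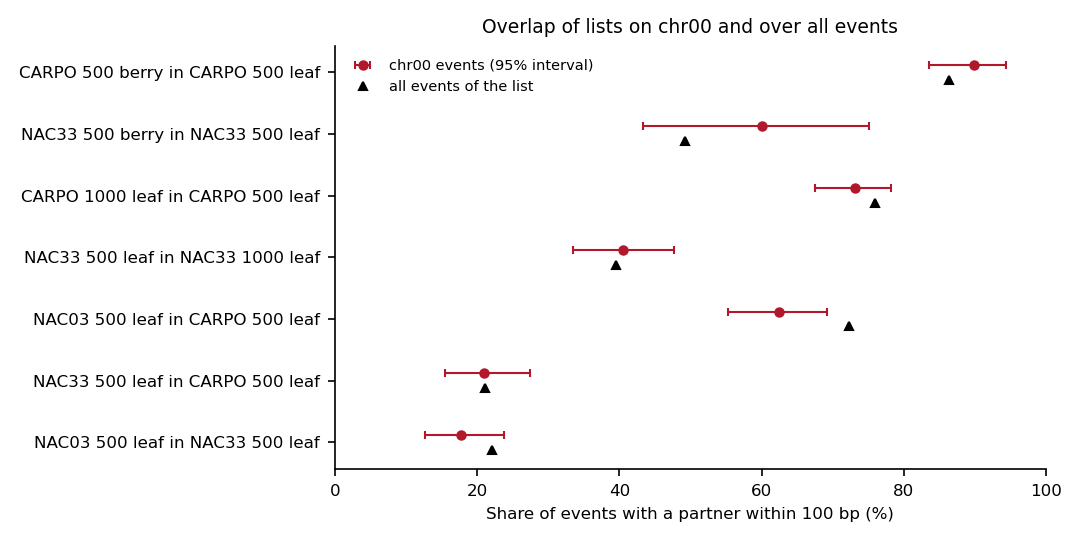
Share of events of the list named first with an event of the list named second within 100 bp (horizontal axis, %), for chr00 events (red circles with exact 95% intervals) and for all events of that list (black triangles), in 7 pairs of lists. The overall share lies outside the chr00 interval in 1 pair, NAC03 in CARPO, with 62.4% on chr00 and 72.3% of all events, and with lists of equal length that pair has 55.0% on chr00 and 50.1% of all events.

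Where events were shared, their order of strength was shared as well. Spearman's rho between the percentiles of partners on chr00 was 0.93 for CARPO on berry and leaf DNA (124 pairs), 0.79 for NAC33 on berry and leaf DNA (24), 0.77 for CARPO 1000 and 500 (207) and 0.92 for NAC33 1000 and 500 (81). Between factors it was 0.87 for NAC03 and CARPO (123), 0.79 for NAC33 and CARPO (41) and 0.87 for NAC03 and NAC33 (35). These are descriptions across events, which are not independent, since many lie in the same windows. The median distance between partners on chr00 was 1 to 4 bp for 5 of these 7 pairs. The pair of NAC33 with CARPO had 20 bp and that of NAC03 with NAC33 had 17 bp, and both pairs had 15 bp on numbered chromosomes.

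By place, 507 of the 840 on chr00 were found in a single list (60.4%), and 60.6% of the 25101 places on numbered chromosomes were. The single-list places came mostly from the leaf lists, with 169 from CARPO 500, 108 from NAC33 1000, 96 from NAC33 500, 68 from CARPO 1000 and 53 from NAC03, while the berry lists gave 8 (CARPO) and 5 (NAC33). CARPO alone held 358 places (42.6%, 39.2% to 46.0%), against 50.2% on numbered chromosomes, and NAC33 alone held 265 (31.5%, 28.4% to 34.8%), against 30.0%. NAC03 alone held 53 (6.31%, 4.76% to 8.17%), against 3.48%. The places of NAC03 alone were strong on chr00, with a median percentile of 77.9 against 27.8 on numbered chromosomes.

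Places with all 3 factors numbered 46 (5.48%, 4.04% to 7.24%), against 4.37% on numbered chromosomes, which lay inside the interval. Their median of the mean percentile was 94.5 on chr00 and 68.6 on numbered chromosomes. CARPO and NAC03 shared 77 further places (9.17%, 7.30% to 11.3%), against 7.63%, CARPO and NAC33 shared 30 (3.57%, 2.42% to 5.06%), against 3.73%, and NAC33 and NAC03 shared 11 (1.31%, 0.655% to 2.33%), against 0.586%. In the 4 densest windows 16 of 95 places held all 3 factors (16.8%), and elsewhere on chr00 30 of 745 did (4.03%). The windows also held 33 places of a single list (34.7%), against 63.6% elsewhere on chr00 and 60.6% on numbered chromosomes. Places in the dense and strong stretches were thus shared more often, but not uniformly.

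All 7 lists held the same 7 places on chr00 (0.833% of its places), against 85 places (0.339%) on numbered chromosomes. Another 9 chr00 places were in 6 lists (1.07%), against 292 (1.16%) on numbered chromosomes. The chr00 share was thus larger for places in 7 lists and not for places in 6 lists, and these shares have no interval. The 10 places in most lists, with ties ordered by mean percentile, are described next. The first, at 10871238 to 10871256, ranked 13, 10 and 27 in the CARPO lists on berry DNA, at 1000 and at 500 on leaf DNA, with strengths of 1648, 2855 and 1727. In the NAC33 lists it ranked 10, 23 and 14, with strengths of 469, 376 and 360.9, and in NAC03 it ranked 31 with 419.1. It was the only place of the 10 within the strongest 31 events of every list.

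The second place, at 7161553 to 7161674, ranked 26, 114 and 41 in the CARPO lists, 4, 29 and 20 in the NAC33 lists and 18 in NAC03. The CARPO and NAC03 positions there (7161639 to 7161641) differed from those of NAC33 1000 and NAC33 500 on leaf DNA (7161672 and 7161674), while the NAC33 berry event lay at 7161626. The third, at 24548904 to 24548916, lay outside the densest windows and ranked 79, 144 and 93 in the CARPO lists, 8, 26 and 16 in the NAC33 lists and 91 in NAC03. By percentile it lay between 97.9 and 99.7 in the 7 lists, with the NAC33 berry event (99.0) below that of CARPO 500 on leaf DNA (99.4).

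The next 4 places, at 10812852 to 10812956, 23720627 to 23720714, 13707232 to 13707234 and 10883758 to 10883765, were also in all 7 lists. In CARPO 1000 they ranked 657, 1337, 2249 and 1897, against 114, 110, 409 and 526 in CARPO 500 on leaf DNA. In NAC33 1000 they ranked 37, 86, 48 and 115, against 28, 13, 32 and 68 in NAC33 500 on leaf DNA. All 4 places stood lower at 1000 than at 500 in both factors. A place joins linked events, so the ranked events can lie at different positions. In the first of these 4, the CARPO events lay at 10812935 at 1000 and 10812854 at 500. In the next, they lay at 23720648 and 23720713 for CARPO, and at 23720706 and 23720649 for NAC33. At the sixth place the positions of the 7 lists differed by 2 bp at most.

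The other 3 of the 10 were in 6 lists. Those at 13687731 to 13687750 and 15061828 to 15061862 were absent from CARPO 1000 and ranked 5 and 9 in the NAC33 berry list. The last, at 7128236 to 7128437, was absent from the NAC33 berry list and ranked 41, 322 and 77 in the CARPO lists, and 71 and 29 in the NAC33 leaf lists at 1000 and 500. Its ranked events lay at 7128236 to 7128238 in the CARPO lists, 7128312 in NAC33 1000 and 7128392 in NAC33 500 on leaf DNA. The ranked NAC33 event at 500 thus lay more than 100 bp from the ranked CARPO events. Of the 9 places among the 10 that NAC33 held on berry DNA, all ranked within the strongest 49 of that list.

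**Figure D5:**
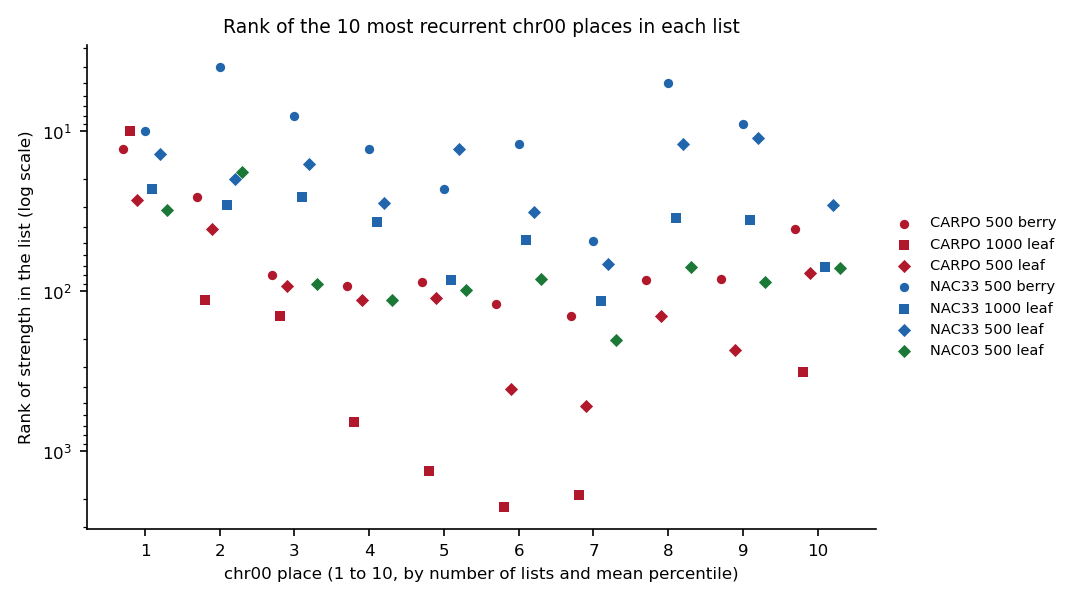
Rank of strength (vertical axis, log scale, strongest at the top) of the 10 chr00 places found in most lists (horizontal axis) in each of 7 lists, with colour for the factor and marker shape for the DNA source and title number. A missing point means that the list has no event at that place. CARPO 1000 (red squares) ranks 10 at the first place and 2249 at the sixth, below every other list at the second to seventh and at the last. Ranks depend on the length of a list. By percentile, CARPO 1000 (98.4) lies above CARPO berry (97.9) and NAC03 (97.9) at the third place.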

How the data were processed

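DAP-seq event lists were used as deposited, 1 per condition. Reads were handled with fastp 0.21.0 and Bowtie2 2.0 per the submitters' processing notes. GEM appears only in the naming of the lists, while build, filters and any control used in calling are not given in the sources used here. The deposited score of column 5 was not used. Columns have no header: from their values, column 7 was read as the authors' signal (strength), comparable only within a list, column 8 as −log10 p with a cap, and column 9 as −log10 q, lowest at 2 to 2.03. Each interval is 201 bp wide, and the position is the start plus the offset of column 10, counted from 1.

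With Python 3.11.15, pandas 2.3.3 and scipy 1.17.1, strength percentiles, partners within 100 bp, places linked within 100 bp and windows of 100 kb were computed, with exact Clopper-Pearson 95% intervals. No test was made. The partner search was tested on simulated data. The chr00 events, comparisons and lists were chosen with earlier results of these data known. Named places follow a rule: the 10 places in most lists (ties by mean percentile), the strongest chr00 event of each list and the 3 windows with most places, 4 through a tie. Control samples were not analysed here.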

Additional observations from a re-analysis of the deposited data

Results flagged for a closer look

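On leaf DNA, the count of chr00 events was lower at 1000 in one factor and higher in the other. CARPO had 283 at 1000 and 442 at 500, a ratio of 0.640, while NAC33 had 237 at 1000 and 195 at 500, a ratio of 1.22. On numbered chromosomes the ratios were 0.620 and 1.07, so the counts there moved the same ways as on chr00. The median strength percentile of chr00 events also moved in opposite directions. It was 54.3 at 1000 and 58.3 at 500 for CARPO, a difference of -3.98 points, and 66.0 at 1000 and 49.9 at 500 for NAC33, a difference of 16.1 points. These results are given because the factors moved in opposite ways under the same contrast. Each condition had 1 list, so how far the factors differ was not tested.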

How the results depend on the processing

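The alternative that leaves out the 4 densest windows was chosen after seeing the data. Without them, the chr00 share of the strongest 100 events was 22%, 5% and 9% in the CARPO lists on berry DNA, at 1000 and at 500 on leaf DNA, 16%, 21% and 18% in the NAC33 lists and 19% in NAC03, fewer by construction. The difference in median percentile between chr00 and numbered chromosomes became 14.8 in CARPO on berry DNA, -0.635 (reversed, from 4.37) in CARPO 1000, 0 in CARPO 500 on leaf DNA and 17.0 in NAC03. The excess of chr00 events with a partner in another list, 1.85 percentage points over the numbered chromosomes, became -2.93 points, the other direction. With every list cut to the length of the shortest it was 12.3 points, and with −log10 q restricted to 4 or more it was 7.73 points.

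Under the same restriction on −log10 q, chr00 kept 80, 174 and 265 events in the CARPO lists, 24, 101 and 62 in the NAC33 lists and 102 in NAC03, fewer because the threshold is stricter. Its share of the list was higher in all 7, at 7.48%, 3.38% and 3.42% for CARPO, 24.5%, 5.51% and 5.12% for NAC33 and 8.77% for NAC03. With the strongest 50, the chr00 share was 12% in CARPO 500 on leaf DNA, 50% in NAC33 on berry DNA, 54% in NAC33 500 on leaf DNA and 14% in NAC03. With the strongest 5% it was 51.4%, 21.0% and 14.6% in the NAC33 lists. Ranking by −log10 p gave 24% in NAC33 1000 and a percentile difference of 25.8 in NAC03. With partners within 25 bp, the overlap on chr00 was 76.8% for CARPO berry in leaf, 58.7% for CARPO 1000 in 500, 51.8% and 11.3% for NAC03 and NAC33 events in CARPO and 11.7% for NAC03 events in NAC33, against 71.2%, 62.2%, 62.8%, 13.0% and 13.7% over all events. With lists cut to the shortest it was 82.1%, 86.0%, 55.0% and 30.8% for the first 4 of these and 73.1% for NAC33 500 in 1000, against 68.4%, 63.1%, 50.1%, 14.9% and 49.7% over all events. The other two pairs had 52.5% on chr00 against 27.1% (NAC33 berry in leaf) and 18.0% against 20.4% (NAC03 in NAC33). Except where the construction is named, the cause was not tested. Of 114 values under an alternative, the other 74 stayed within the counting interval of the main value, or within 1.5 times a count.

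No paired analysis was possible because a condition is represented by a single list, in which replicates are pooled. Leaving out a replicate was likewise not possible. Depth is unknown, so an event missing from a list is known only to have no entry there.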
